A study of Mus musculus with 10 samples.

Results

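The genes examined were 10 genes of bile acid synthesis and its control in mouse liver, Cyp7a1, Cyp8b1, Cyp27a1, Cyp7b1, Hsd3b7, Akr1d1, Slc27a5, Baat, Nr0b2 and Nr1h4. They were taken by gene symbol from the platform annotation, with every probe set that carries the symbol, which gave 16 of the 45101 probe sets on the array. All 10 genes were among the 12855 genes tested. The liver RNA was from male mice of the inbred strain C57BL/6 NHsd. The groups were Rab5 siRNA (4 livers), given lipid nanoparticles with small interfering RNAs against all Rab5 genes, small GTPases of early endosomes, control siRNA (4 livers), given nanoparticles with a non-targeting RNA, and PBS (2 livers), given phosphate-buffered saline. The siRNA dose was 1.5 mg/kg into the tail vein, and tissue was collected on day 5. The sample titles call the control RNA scrambled while the design text names luciferase, the ages of the mice are not given in the sources used here, and nothing states in words that each array came from its own mouse.

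Bile acids are made from cholesterol in hepatocytes. In the classic route Cyp7a1 starts with the sterol ring and sets the rate, and Cyp8b1 decides how much cholic acid is formed. In the alternative route the mitochondrial enzyme Cyp27a1 first oxidises the side chain and Cyp7b1 then hydroxylates the ring. Hsd3b7 and Akr1d1 change the ring in both routes, and Slc27a5 and Baat join the finished acid to coenzyme A and then, in mice, mainly to taurine. The bile acid receptor FXR, encoded by Nr1h4, induces the repressor SHP, encoded by Nr0b2, which lowers transcription of Cyp7a1 and Cyp8b1.

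Against control siRNA, 7 of the 10 genes fell in Rab5 siRNA livers and 0 rose, while 9.51% of all genes tested fell, 13.8% rose and 23.3% changed in either direction. The falls were those of Cyp7b1, Slc27a5, Cyp7a1, Cyp8b1, Cyp27a1, Hsd3b7 and Nr1h4. Akr1d1, Nr0b2 and Baat also had lower means but did not pass. The median difference of the 10 genes was -0.88 on the log2 scale, beside 0.00 for all genes. The 10 genes were chosen with earlier results of these data known. Their mean levels lay between the 66.6th and 98.8th percentile of genes tested, so all genes are not a matched background. The siRNA groups did not overlap for 3 of the 10 genes, Cyp27a1, Cyp7b1 and Slc27a5, and, in either direction, for 25.0% of all genes. All 16 probe sets had differences below 0, and 8 of them passed in a fit over all probe sets, of which 10.9% passed in either direction. Without the arrays numbered 2 the count of genes was 4, those of Cyp8b1, Cyp27a1, Cyp7b1 and Slc27a5. With arrays paired by replicate number it was 9, although the labels do not state that the numbers pair the livers. All values are log2 expression values of the array, differences are Rab5 siRNA minus control siRNA unless another pair is named, and a change was called at an adjusted p under 0.05 by limma. Only RNA was measured, and in whole liver fewer cells of a type and less RNA per cell cannot be told apart. No second set of Rab5 siRNAs was among the groups, so the loss of Rab5 and any off-target action of the siRNAs cannot be told apart.

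A few facts about the whole set bear on these values. Rab5a stood at 28.6% and Rab5c at 25.1% of the control siRNA signal in Rab5 siRNA livers, whereas the dim Rab5b did not pass (adjusted p = 0.194). Of the markers of hepatocytes, which make bile acids, 9 were measured, 1 rose and 0 fell (background 13.8% up and 9.51% down, for the lists below too). The log2 of their summed signal was 16.70 to 16.74 in Rab5 siRNA, 16.61 to 16.66 in control siRNA and 16.64 to 16.66 in PBS livers. Of these markers, Alb and Ttr averaged 14.06 in control siRNA livers, near the highest value of any array (14.48). Of 12 Kupffer cell and macrophage markers 8 rose and 0 fell, with summed signals of 13.23 to 13.68 in Rab5 siRNA, 12.76 to 13.05 in control siRNA and 12.82 to 12.97 in PBS livers. Of 10 stellate markers 4 rose and 0 fell (11.08 to 11.51 in Rab5 siRNA, 10.90 to 11.24 in control siRNA and 10.89 to 10.90 in PBS livers), and of 8 endothelial markers 1 rose and 4 fell (10.50 to 10.74 in Rab5 siRNA, 10.84 to 10.92 in control siRNA and 10.68 to 10.81 in PBS livers). Of 9 cholangiocyte markers 3 were measured, of which 1, Sox9, rose (6.89 to 7.24 in Rab5 siRNA, 6.601 to 6.79 in control siRNA and 6.56 to 6.70 in PBS livers). The part of these other cells in the changes of the bile acid genes was not tested. Rab5 siRNA replicate 1 stood apart from the other Rab5 siRNA arrays on the first principal component of all genes (17.5, against 30.3 to 38.3). It was the extreme value of its group for several genes, and is named below for some of them. The 3′ minus 5′ signal of actin, a sign of RNA quality, was 2.59 to 2.75 in Rab5 siRNA, 2.84 to 3.23 in control siRNA and 2.83 to 3.13 in PBS livers, so it moved with the Rab5 siRNA group. That of Gapdh overlapped between the groups, at 2.29 to 2.67 in Rab5 siRNA, 2.19 to 2.86 in control siRNA and 2.15 to 2.58 in PBS livers. The part of RNA quality in the changes was not tested.

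**Figure D1:**
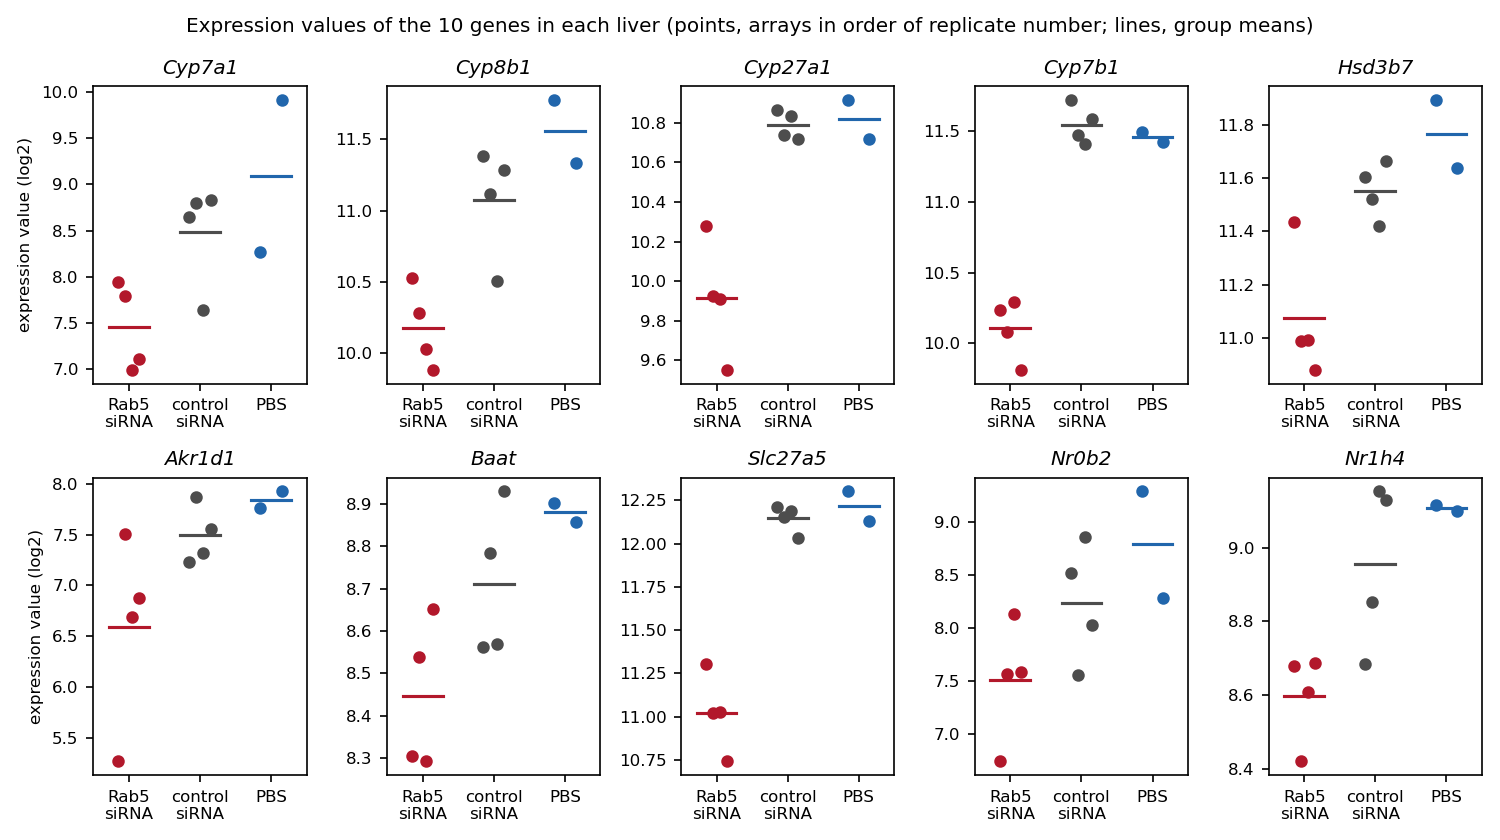
Expression values (log2, vertical axis, a separate scale in each panel) of the 10 genes in each liver, as points for Rab5 siRNA, control siRNA and PBS, with lines at the group means. For Cyp27a1, Cyp7b1 and Slc27a5 all 4 Rab5 siRNA points lie below all 4 control siRNA points, and for all 10 genes they lie below both PBS points.

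Promoter sequence, the 250 bases before the annotated start, was taken from RefSeq (GRCm38.p6) for the 6 genes listed there, Cyp8b1, Cyp27a1, Hsd3b7, Akr1d1, Nr0b2 and Nr1h4. The other members are Cyp7a1, Cyp7b1, Slc27a5 and Baat. Shown 5′ to 3′ are 2 enzymes that fell in every setting tried, Cyp8b1 (chr9:121916306-121916555, minus strand) and Cyp27a1 (chr1:74713285-74713534, plus strand), and both regulators, Nr0b2 (chr4:133553126-133553375, plus strand) and Nr1h4 (chr10:89506659-89506908, minus strand). Capitals mark matches to the motifs searched.
Cyp8b1: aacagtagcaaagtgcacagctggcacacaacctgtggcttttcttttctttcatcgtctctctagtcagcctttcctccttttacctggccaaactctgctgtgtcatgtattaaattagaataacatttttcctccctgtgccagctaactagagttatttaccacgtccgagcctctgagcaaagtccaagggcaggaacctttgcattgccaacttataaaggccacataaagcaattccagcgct
Cyp27a1: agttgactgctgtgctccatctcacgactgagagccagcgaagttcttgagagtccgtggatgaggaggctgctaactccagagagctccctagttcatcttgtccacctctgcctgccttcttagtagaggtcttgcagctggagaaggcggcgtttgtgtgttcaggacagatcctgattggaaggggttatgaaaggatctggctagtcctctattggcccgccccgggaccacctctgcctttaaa
Nr0b2: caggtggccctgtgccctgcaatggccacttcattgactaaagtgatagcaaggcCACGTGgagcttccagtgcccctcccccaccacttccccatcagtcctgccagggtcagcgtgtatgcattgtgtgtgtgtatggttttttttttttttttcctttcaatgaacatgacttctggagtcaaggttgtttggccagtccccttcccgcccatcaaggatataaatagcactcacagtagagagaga
Nr1h4: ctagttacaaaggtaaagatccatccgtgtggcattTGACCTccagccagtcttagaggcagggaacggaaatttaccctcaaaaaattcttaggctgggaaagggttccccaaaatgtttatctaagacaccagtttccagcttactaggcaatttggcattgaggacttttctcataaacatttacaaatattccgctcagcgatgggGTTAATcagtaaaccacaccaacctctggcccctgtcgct

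The motifs were searched on both strands as exact letters with no mismatch allowed, so a site that differs in any letter would be missed. The nuclear receptor element AGGTCA lay in the promoters of Akr1d1, at 2 places, and Nr1h4, and in 14.0% of the 32851 promoters of the table. The element GTTAAT of the factor HNF1 began 40 bases before the start of Nr1h4 and in 6.43% of all promoters. The E box CACGTG, bound by clock factors among others, began 195 bases before the start of Nr0b2 and was present in 6.02% of all promoters. No match to TCAAGGTCA, the site of the liver receptor homologue NR5A2, or to its core CAAGGTC was found in these windows (0.387% and 3.32% of all promoters). Nor was there one to the D box TTATGTAA (0.819%), or to 2 copies of AGGTCA in direct (0.0335%) or inverted repeat with 1 base between (0.00609%). The AGGTCA count includes any copy inside a longer motif.

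Cyp7b1, the oxysterol hydroxylase of the alternative route, showed the largest change of the 10 genes. Its values were 10.24, 10.08, 10.30 and 9.81 in Rab5 siRNA livers, 11.72, 11.47, 11.41 and 11.58 in control siRNA livers, and 11.49 and 11.42 in PBS livers. Every Rab5 siRNA liver lay more than a full log2 unit below every liver of the other groups. The mean was 10.11 ± 0.216 in Rab5 siRNA and 11.55 ± 0.139 in control siRNA livers (SD, n = 4 each), and the difference was -1.44 (SE 0.118, adjusted p = 3.29e-06), or 36.9% of the control siRNA signal. A further bright probe set of Cyp7b1 changed by -1.38 (adjusted p = 5.33e-06 over all probe sets), and the remaining one was at 1.98 in Rab5 siRNA and 2.06 in control siRNA livers, too dim for the filter.

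Cyp27a1, the first enzyme of the same route, also had separate groups. It measured 10.28, 9.92, 9.91 and 9.55 in Rab5 siRNA livers, against 10.87, 10.74, 10.84 and 10.72 in control siRNA and 10.92 and 10.72 in PBS livers. The control siRNA livers lay within 0.147 of one another, while the Rab5 siRNA livers spanned 0.725, with replicate 1 highest. The difference was -0.87 (SE 0.133, adjusted p = 3.61e-04), which left 54.5% of the signal. The log2 difference between Cyp27a1 and Cyp7b1 within an array averaged -0.19 ± 0.180 in Rab5 siRNA and -0.76 ± 0.137 in control siRNA livers (SD, n = 4 each), with no overlap. The two-sided exact permutation test gave p = 0.0286, the smallest that 4 against 4 arrays allow, and 0.0858 after adjustment over the 6 pairs of genes compared, which did not pass. Even that smallest p passes the adjustment only if most of the pairs reach it, so a larger fall of Cyp7b1 is not decided here.

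Cyp7a1, the rate-limiting enzyme of the classic route, was among the most variable genes on the array. Its values were 7.94, 7.80, 6.99 and 7.11 in Rab5 siRNA livers, 8.65, 8.79, 7.64 and 8.83 in control siRNA livers, and 8.26 and 9.92 in PBS livers. Control siRNA replicate 3 fell among the Rab5 siRNA livers, and the PBS livers differed by more than the siRNA group means did. The SD within groups was 0.655, higher than for 99.7% of genes tested. The mean was 7.46 ± 0.477 in Rab5 siRNA and 8.48 ± 0.564 in control siRNA livers (SD, n = 4 each), a difference of -1.02 (SE 0.348, 95% interval -1.77 to -0.27, adjusted p = 0.04999). This call ended in 11 of 21 alternatives (adjusted p 0.0546 to 0.142), among them each fit without control siRNA replicate 1, 2 or 4 or Rab5 siRNA replicate 2, 3 or 4, and its difference stayed between -1.30 and -0.86. The dimmer Cyp7a1 probe set had 4.68, 4.99, 4.27 and 4.53 in Rab5 siRNA livers, against 5.48, 5.64, 5.00 and 6.13 in control siRNA livers. There the groups did not overlap, and the difference of -0.94 (SE 0.217) passed over all probe sets (adjusted p = 0.00998), where the brighter one did not (adjusted p = 0.0641).

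Cyp8b1, which steers synthesis to cholic acid, fell as well. It stood at 10.53, 10.28, 10.03 and 9.88 in Rab5 siRNA livers, against 11.39, 11.12, 10.51 and 11.28 in control siRNA and 11.78 and 11.34 in PBS livers. The groups overlapped only where control siRNA replicate 3 (10.51) lay just below Rab5 siRNA replicate 1 (10.53). That control siRNA liver was also low in Cyp7a1. The difference was -0.89 (SE 0.192, adjusted p = 0.00441), 53.8% of the control siRNA signal, and it passed in all 21 alternatives. The falls of Cyp7a1 and Cyp8b1 differed by -0.13, and those of Cyp7a1 and Cyp7b1 by 0.42. Neither passed (two-sided exact permutation p = 0.457 and 0.286, each 0.549 adjusted over the 6 pairs).

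Of the ring-modifying enzymes, Hsd3b7 fell and Akr1d1 did not pass. Hsd3b7, a dehydrogenase of the endoplasmic reticulum, had 11.44, 10.99, 10.99 and 10.88 in Rab5 siRNA livers, against 11.61, 11.52, 11.42 and 11.66 in control siRNA and 11.90 and 11.64 in PBS livers. Rab5 siRNA replicate 1 alone reached the control siRNA values, and the other Rab5 siRNA livers lay below all of them. The difference was -0.48 (SE 0.126, adjusted p = 0.0144), and without the arrays numbered 2 it was -0.46 (adjusted p = 0.103). Akr1d1, the reductase that gives bile acids their bent ring shape, measured 5.27, 7.51, 6.69 and 6.88 in Rab5 siRNA livers, against 7.23, 7.87, 7.32 and 7.56 in control siRNA and 7.76 and 7.93 in PBS livers. Its Rab5 siRNA livers spanned 2.24, with replicate 1 lowest and replicate 2 inside the control siRNA range. The difference was -0.91 (SE 0.345, adjusted p = 0.0755), with adjusted p = 0.0163 without Rab5 siRNA replicate 2, 0.0267 with arrays paired by replicate number and 0.0411 with the mean of probe sets. It was -0.47 without Rab5 siRNA replicate 1 (adjusted p = 0.0876) and -0.44 with array weights (adjusted p = 0.283), so that liver carries much of its size. Its dimmer probe set separated the groups, at 5.02, 5.81, 5.29 and 5.68 in Rab5 siRNA and 5.94, 5.91, 5.96 and 6.41 in control siRNA livers, and fell by 0.61 (adjusted p = 0.0336 over all probe sets). The changes of Hsd3b7 and Akr1d1 differed by 0.43 (two-sided exact permutation p = 0.714).

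Of the conjugating enzymes, Slc27a5 fell and Baat did not pass. Slc27a5, the bile acyl-CoA synthetase, had 11.30, 11.02, 11.02 and 10.74 in Rab5 siRNA livers, against 12.21, 12.15, 12.19 and 12.03 in control siRNA and 12.30 and 12.13 in PBS livers. No Rab5 siRNA liver came near the other groups, and the difference was -1.12 (SE 0.117, adjusted p = 1.95e-05), 45.9% of the control siRNA signal. Baat, which attaches the amino acid, measured 8.30, 8.54, 8.29 and 8.65 in Rab5 siRNA livers, against 8.56, 8.78, 8.57 and 8.93 in control siRNA and 8.90 and 8.86 in PBS livers. Its siRNA groups overlapped, and the difference of -0.26 (SE 0.117, 95% interval -0.52 to -0.01) did not pass (adjusted p = 0.124), although it did with arrays paired by replicate number (adjusted p = 0.0433). The other Baat probe set did not overlap between the siRNA groups but changed by only -0.20 (adjusted p = 0.235 over all probe sets). The log2 difference between Slc27a5 and Baat averaged 2.58 ± 0.387 in Rab5 siRNA and 3.43 ± 0.255 in control siRNA livers (SD, n = 4 each). These did not overlap, with a two-sided exact permutation p = 0.0286 and 0.0858 after adjustment over the 6 pairs, which did not pass. Here too the smallest possible p could pass only if most pairs reached it, so a larger fall of Slc27a5 is not decided.

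Both regulators had lower means in Rab5 siRNA livers. Nr1h4, the receptor FXR, measured 8.68, 8.42, 8.61 and 8.69 in Rab5 siRNA livers, against 8.69, 8.85, 9.15 and 9.13 in control siRNA and 9.12 and 9.10 in PBS livers. The siRNA groups met at control siRNA replicate 1, which stood just below the highest Rab5 siRNA liver. The difference was -0.36 (SE 0.118, adjusted p = 0.0439), or 78.1% of the control siRNA signal, and it missed the threshold in 12 of 21 alternatives (adjusted p 0.0501 to 0.194). Among these was each fit without PBS replicate 1 or 2, control siRNA replicate 2, 3 or 4, or Rab5 siRNA replicate 2, 3 or 4. Nr0b2, the repressor SHP, measured 6.74, 7.56, 8.14 and 7.58 in Rab5 siRNA livers, against 8.52, 7.56, 8.86 and 8.03 in control siRNA and 9.30 and 8.29 in PBS livers. Rab5 siRNA replicate 1 was lowest, and the siRNA groups overlapped widely. The difference of -0.74 (SE 0.318, 95% interval -1.42 to -0.05) did not pass (adjusted p = 0.116), nor in any of 21 alternatives (adjusted p 0.0505 to 0.410), and it was -0.48 without Rab5 siRNA replicate 1. Its change and that of Nr1h4 differed by -0.38 (two-sided exact permutation p = 0.429, and 0.549 adjusted).

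**Figure D2:**
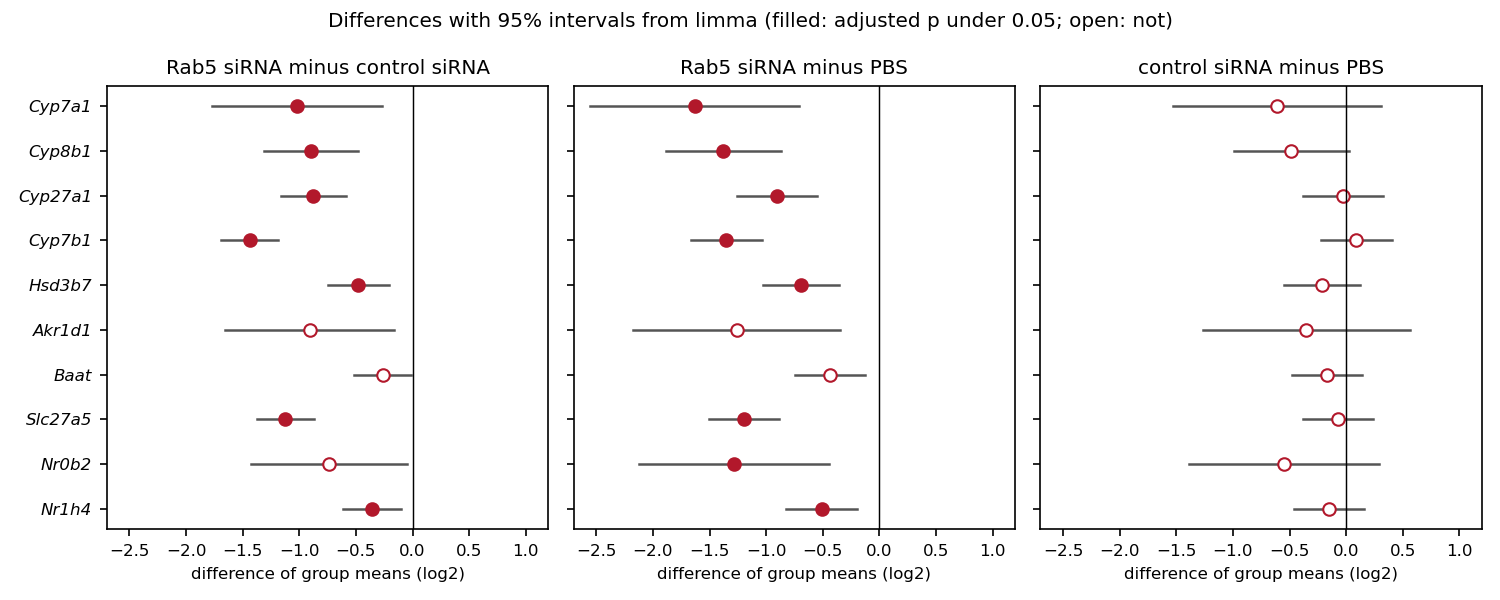
Differences of group means (log2, horizontal axis) with 95% intervals from limma for the 10 genes, for Rab5 siRNA minus control siRNA, Rab5 siRNA minus PBS and control siRNA minus PBS. Filled points have an adjusted p under 0.05, which 7, 8 and 0 genes reached.

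The PBS livers give a second view of the same Rab5 siRNA arrays, so these values are not independent of those above. Against PBS 8 of the 10 genes fell and 0 rose, while 7.59% of all genes fell, 9.53% rose and 17.1% changed in either direction, and their median difference was -1.23. In all 10 genes the 4 Rab5 siRNA livers lay below both PBS livers, and the groups did not overlap, in either direction, for 37.8% of all genes. Of the 16 probe sets 10 passed, all of them lower, against 7.82% of all probe sets in either direction. Cyp7a1 stood at -1.63 (SE 0.426, adjusted p = 0.0177), but at -0.80 without PBS replicate 2 (adjusted p = 0.310) and -2.46 without PBS replicate 1, so a single PBS liver sets this value. Cyp8b1 (-1.38, adjusted p = 0.00119), Cyp7b1 (-1.35, adjusted p = 3.46e-05), Slc27a5 (-1.19, adjusted p = 8.56e-05) and Cyp27a1 (-0.90, adjusted p = 0.00177) fell in all 21 alternatives. Hsd3b7 changed by -0.69 (adjusted p = 0.00713), a call that ended without PBS replicate 1 (adjusted p = 0.116).

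Nr0b2 passed against PBS only, at -1.29 (SE 0.389, adjusted p = 0.0374). That call ended without PBS replicate 1 (-0.78, adjusted p = 0.393) and without Rab5 siRNA replicate 1, 2 or 4 (adjusted p = 0.0541, 0.0634 and 0.0584). Nr1h4 was at -0.51 (adjusted p = 0.0279) and missed the threshold without PBS replicate 1 or 2 (adjusted p = 0.157 and 0.130) and without Rab5 siRNA replicate 2 or 3 (0.0755 and 0.0536). Akr1d1 (-1.26, adjusted p = 0.0583) and Baat (-0.43, adjusted p = 0.0544) did not pass. Akr1d1 did in 5 of 21 alternatives, among them without Rab5 siRNA replicate 1 (-0.82, adjusted p = 0.0215) or 2 (adjusted p = 0.0134) and with the mean of probe sets (0.0442). Baat did in 8 of 21, among them without control siRNA replicate 4 or Rab5 siRNA replicate 4 (0.0466 and 0.0314). Quantile normalization (0.0429) and array weights (0.0380) also gave a call of Baat.

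For control siRNA against PBS, limma called 0 of the 10 genes and 0 of 12855 in all, where 0 of the 10 and 554 genes in all had an unadjusted p under 0.05. Quantile normalization gave 2 calls among all genes and array weights 3, none of them among the 10. The differences, control siRNA minus PBS, ran from -0.61 for Cyp7a1 (95% interval -1.53 to 0.31) to 0.09 for Cyp7b1 (-0.22 to 0.40). Nr0b2 (-0.55), Cyp8b1 (-0.48) and Akr1d1 (-0.35) were the next lowest, and Cyp27a1 was at -0.03 (-0.38 to 0.33). With 2 PBS livers these intervals are wide, and that of Cyp7a1 includes a change as large as the one between the siRNA groups.

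Within the groups, the livers with more Cyp7a1 RNA tended to have less Nr0b2 RNA. Control siRNA replicate 3 had the lowest Cyp7a1 value of its group and the highest Nr0b2 value, and so did Rab5 siRNA replicate 3 in its own. Rab5 siRNA replicate 1 had the reverse, the highest Cyp7a1 and the lowest Nr0b2, and of the PBS livers the one higher in Cyp7a1 was lower in Nr0b2. After group means were taken away, Pearson's r was -0.83 and Spearman's rho -0.85 over 10 arrays. With arrays exchanged within groups the two-sided exact permutation p was 0.00694 and 0.00868, and 0.0625 and 0.0781 after adjustment over the 9 other genes set against Cyp7a1, so neither passed. Same-numbered Rab5 siRNA and control siRNA arrays deviated together, which this exchange does not take into account, so these p-values may be too small. Without the 2 arrays farthest from the median of Nr0b2, r was -0.89 over 8 arrays.

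Cyp8b1 deviated in the direction of Cyp7a1 in the siRNA groups and in the opposite one in the PBS livers, and the correlation did not pass. Over the 8 siRNA arrays r was 0.92 and rho 0.83 (two-sided exact permutation p = 0.0278 for both, adjusted p = 0.0990 for r over the 9 genes), while over all 10 arrays r was 0.40 and rho 0.33 (p = 0.320 and 0.411). Without the 2 arrays farthest from the median of Cyp8b1, control siRNA replicate 3 and Rab5 siRNA replicate 4, r was 0.76 over the other 6 siRNA arrays. With both PBS livers, which run the opposite way, added to those 6 it was -0.11. For the other 7 genes r over 10 arrays lay between -0.33 for Nr1h4 and 0.22 for Hsd3b7, with adjusted p = 0.947. Some of these depended on few arrays. Without Rab5 siRNA replicates 1 and 4, the 2 farthest, r went from 0.08 to -0.73 for Cyp27a1 and from 0.03 to -0.69 for Slc27a5. For the rest of the 7, r without the 2 farthest arrays of each gene was -0.11 to 0.37. Hsd3b7 had r = 0.67 and rho = 0.74 over the 8 siRNA arrays (two-sided exact permutation p = 0.0330 and 0.0556, adjusted p = 0.0990 for r, as for Cyp8b1), and r = 0.60 without Rab5 siRNA replicate 1 and control siRNA replicate 4. Of the genes tested, those whose symbols end in Rik or take the form Gm, LOC or BC with digits were passed over. Among the rest, Tbkbp1 (r = 0.95), Inip (0.95), Mark1 (0.94), Afap1l1 (0.92) and Scrt1 (0.92) deviated most like Cyp7a1 over the 10 arrays. They were picked as the highest of these genes, and Afap1l1 and Scrt1 were dim, with group means of 4.58 to 4.79.

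**Figure D3:**
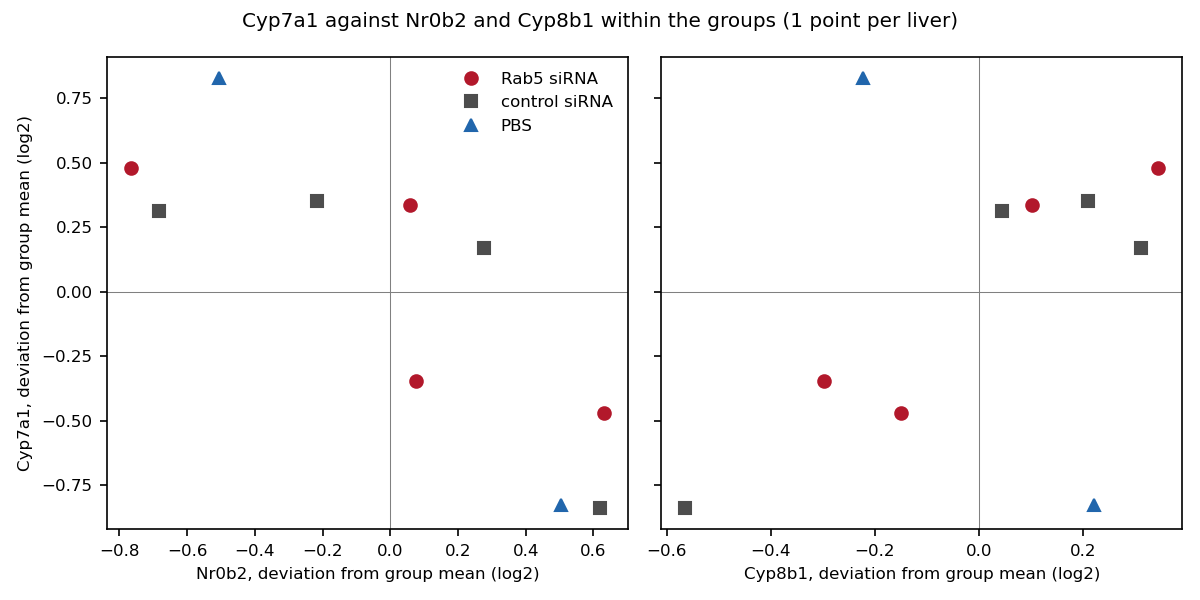
Deviation of Cyp7a1 from its group mean (log2, vertical axis) against that of Nr0b2 (left) and of Cyp8b1 (right), 1 point per liver, by group. Points run downwards for Nr0b2 in all groups (r = -0.83 over 10 arrays), and upwards for Cyp8b1 in the siRNA groups alone.

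Other enzymes of bile acid synthesis were described with a list of 14 genes, 13 of them measured. Of these 6 fell and 0 rose in Rab5 siRNA against control siRNA livers (background 9.51% down), with a median of -0.36. The steroid reductase Akr1c14 (-0.97, adjusted p = 0.0199) and 2 proteins that serve peroxisomes, where the side chain is shortened, the acyl-CoA synthetase Slc27a2 (-0.88, adjusted p = 6.40e-05) and the transporter Abcd3 (-0.69, adjusted p = 9.35e-04), were lowest. The thioesterase Acot8 (-0.45), the racemase Amacr (-0.40) and the thiolase Scp2 (-0.36, and -0.70 for its most variable probe set) fell too. Cyp2c70, which makes the muricholic acids of mice, was at -0.10 (adjusted p = 0.543), Akr1c6 at -0.10, Hsd17b4 at -0.23, Hsd17b6 at -0.55, Cyp46a1 at -0.19 and the oxidase Acox2 at 0.07, none of which passed. Cyp39a1, a further oxysterol hydroxylase, was at 0.29 (adjusted p = 0.146). Against PBS it rose by 0.62 (adjusted p = 0.0188), a call that ended without either PBS liver. Also against PBS 4 of the 13 fell, Slc27a2, Abcd3, Acot8 and Amacr. Akr1c14 (-0.62, adjusted p = 0.240) and Scp2 (-0.36, adjusted p = 0.0649) did not pass there.

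The calls of Slc27a2 and Abcd3 against control siRNA passed in all 21 alternatives. That of Amacr ended without the arrays numbered 2 (adjusted p = 0.0707). Akr1c14 missed the threshold without control siRNA replicate 2 or 4 or Rab5 siRNA replicate 3, Scp2 without control siRNA replicate 2 or Rab5 siRNA replicate 2 or 3, and Acot8 without control siRNA replicate 1 or Rab5 siRNA replicate 2 or 4. All 3 missed it without the arrays numbered 2 as well, with adjusted p between 0.0571 and 0.195 in these fits.

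Of 20 other regulators 18 were measured, and 7 fell and 0 rose against control siRNA (background 9.51% down and 13.8% up), with a median of -0.23. Klb, the coreceptor through which the intestinal hormone FGF15 acts on hepatocytes, had 6.604, 6.590, 6.308 and 6.396 in Rab5 siRNA livers, against 7.306, 7.456, 7.859 and 7.794 in control siRNA livers. The groups lay apart, with a difference of -1.13 (SE 0.132, adjusted p = 4.69e-05), while its partner receptor Fgfr4 was at 0.05 (SE 0.148, adjusted p = 0.859). Ppara fell by 0.98 and the coactivator Ppargc1a by 1.06 (adjusted p = 2.99e-04 and 0.00208). Ppargc1a was dim, at 3.64, 4.86, 4.04 and 4.18 in Rab5 siRNA livers and 5.36, 5.39, 5.16 and 5.08 in control siRNA livers. Only 1 of the Rab5 siRNA values lies above the filter, so the gene was kept through the other groups. Dbp, a clock output factor that activates Cyp7a1, stood at 7.46, 7.71, 8.83 and 7.12 in Rab5 siRNA livers, 9.72, 10.30, 9.90 and 9.01 in control siRNA livers, and 8.57 and 7.49 in PBS livers. Its difference was -1.95 (SE 0.354, adjusted p = 0.00133) against control siRNA and -0.25 (adjusted p = 0.767) against PBS, and control siRNA minus PBS was 1.70 (adjusted p = 0.602). Dbp cycles over the day, and the labels give no hour of collection. The part of the hour in its values, and in those of the 10 genes, was not tested.

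The nuclear receptors Nr5a2 (-0.40, adjusted p = 0.0379), which activates Cyp7a1 and Cyp8b1, and Rxra (-0.42, adjusted p = 0.0329), the partner of FXR, fell as well, and so did Nfil3 (-0.64, adjusted p = 0.0499). The calls of Klb, Ppara, Dbp and Ppargc1a passed in every alternative that kept the gene. Nr5a2 lost its call in 10 of 21 alternatives, among them the fits without any one array other than control siRNA replicate 1 and Rab5 siRNA replicate 4 (adjusted p 0.0506 to 0.160 in those 10). Rxra lost it in 6, without control siRNA replicate 1, 3 or 4 or Rab5 siRNA replicate 2 or 4 and without the arrays numbered 2 (0.0512 to 0.118). Nfil3 lost it in 14, among them the fits without either PBS liver, without control siRNA replicate 1 or 3 and without Rab5 siRNA replicate 1, 2 or 3 (0.0535 to 0.181). Hnf4a (-0.17), Nr1h3 (-0.28), Nr1d1 (-0.37), Foxo1 (-0.07), Foxa2 (0.08), Prox1 (0.06), Nr1i2 (0.10), Nr1i3 (0.06), Mafg (0.14) and Zfp36l1 (0.38) did not pass. Against PBS 4 of the 18 regulators fell, Klb, Ppara, Ppargc1a and Nfil3. Of these calls, Ppara lost its own in 1 alternative, Ppargc1a in 8 and Nfil3 in 4. Nr5a2 (-0.47, adjusted p = 0.0576) and Rxra (-0.48, adjusted p = 0.0594) did not pass against PBS.

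Targets of FXR other than Nr0b2 changed in both directions. Of 8 measured, 3 rose and 1 fell (background 13.8% up and 9.51% down), with a median of 0.13. Slc51b, a subunit of the basolateral bile acid exporter, had 5.83, 6.78, 6.87 and 6.41 in Rab5 siRNA livers, against 5.50, 5.83, 5.64 and 5.50 in control siRNA livers, a rise of 0.86 (SE 0.186, adjusted p = 0.00466). The lowest Rab5 siRNA liver, replicate 1, was only just above the highest control siRNA liver. The apolipoprotein Apoc2 rose by 0.70 and the phospholipid exporter Abcb4 by 0.43 (adjusted p = 1.88e-04 and 0.0286). The canalicular bile salt exporter Abcb11 changed by -0.48 (SE 0.144, adjusted p = 0.0277). Slc51a (-0.23), Abcc2 (0.23), Pltp (-0.06) and Fetub (0.02) did not pass. Slc51b and Apoc2 kept their calls in all 21 alternatives. Abcb4 lost its call in 7, without control siRNA replicate 1, 3 or 4, Rab5 siRNA replicate 2, 3 or 4 or the arrays numbered 2 (adjusted p 0.0542 to 0.0890). Abcb11 lost it in 7, without control siRNA replicate 2 or 4 and Rab5 siRNA replicate 1 or 3 among others (0.0517 to 0.0798). Against PBS, Slc51b and Apoc2 rose and 0 of the 8 fell, and Slc51b lost that call in 3 alternatives. Abcb4 (0.48, adjusted p = 0.0527) and Abcb11 (-0.34, adjusted p = 0.219) did not pass against PBS.

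Genes of the ileum, where FXR induces Fgf15, were dim. Fgf15 itself was at 4.64, 4.64, 4.61 and 4.55 in Rab5 siRNA, 4.91, 4.67, 4.77 and 4.88 in control siRNA and 4.45 and 4.46 in PBS livers, close to the median of the whole table (4.33). Its siRNA groups did not overlap, as for 25.0% of all genes in either direction, and the difference of -0.20 did not pass (adjusted p = 0.130). The other 4 ileum markers did not pass the filter.

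**Figure D4:**
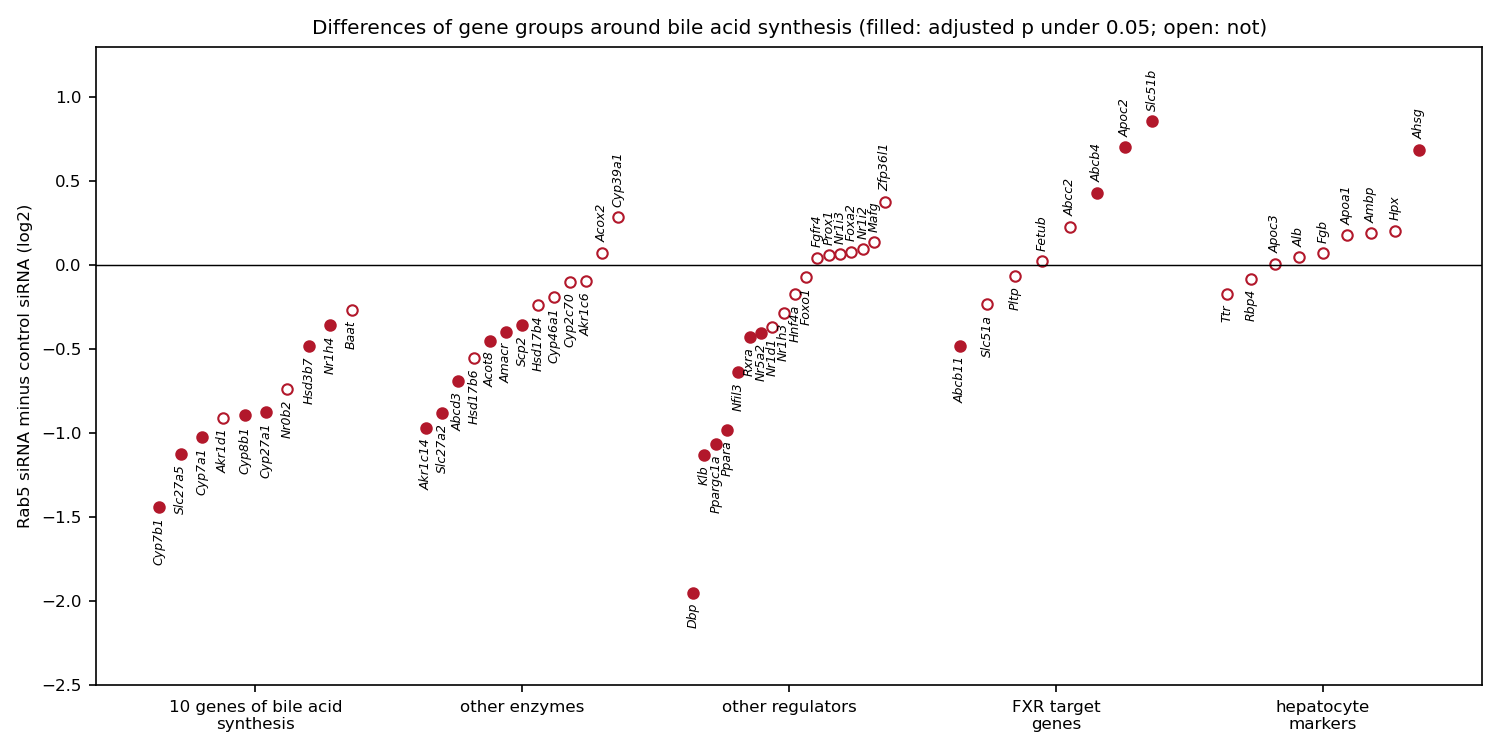
Rab5 siRNA minus control siRNA (log2, vertical axis) for each measured gene of 5 lists, ordered by size within a list. Filled points have an adjusted p under 0.05: 7 of 10 genes of bile acid synthesis, 6 of 13 other enzymes, 7 of 18 other regulators, 4 of 8 FXR targets and 1 of 9 hepatocyte markers.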

How the data were processed

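Expression was measured on Affymetrix arrays in 10 livers. The authors deposited log2 values for 45101 probe sets. The tools named, per the submitters' processing notes, are Affymetrix Expression Console, RMA (robust multi-array average) and Partek 6.6, in an order not given. RMA subtracts background and equalises the arrays, so a shift of all transcripts would not be seen, and changes of dim probe sets are compressed. The number of arrays limits the precision.

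Genes were named by the platform annotation where it gave 1 symbol (34945 probe sets). Probe sets above the table median (4.33) in at least 2 arrays were kept, and the one with the highest mean stood for its gene. All 10 arrays were fitted with limma 3.58.1 in R 4.3.3, with a mean per group and Benjamini-Hochberg adjustment over 12855 genes. Each probe set was also fitted without filter, over 45037. The model was tested on simulated data. Genes named in the text were all members, called members of the other lists and, among symbols not passed over, the 5 genes most like Cyp7a1. Members and lists were chosen with earlier results of these data known. Replicates are the numbered titles, and a p-value here reflects only how these samples spread, which may be technical.

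Rab5 siRNA and control siRNA arrays of the same number deviated together from their group means, with r of 0.39, 0.15, 0.19 and 0.31 across genes, so a fit with the number as a block was taken as a paired alternative. The labels do not state such a pairing. Exact permutation tests used scipy 1.17.1. Other alternatives were the filter, the choice of probe set, normalization, array weights, the prior variance, the arrays fitted, and leaving out arrays. A fit that drops replicate 1 of each siRNA group was chosen after seeing the data. No array pair was identical.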

Additional observations from a re-analysis of the deposited data

Results flagged for a closer look

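In 32 groups of 4 arrays, 2 held an array far from the other 3 by Dixon's test, where chance gives about 1 in 20. Cyp7a1 in control siRNA replicate 3 was at 7.64, below the other control siRNA arrays (8.65 to 8.83). The dimmer probe set of Akr1d1 in control siRNA replicate 4 was at 6.41, above the other control siRNA arrays (5.91 to 5.96).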

How the results depend on the processing

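Of the 10 genes, 0 changed direction between Rab5 siRNA and control siRNA, or between Rab5 siRNA and PBS, in any of 21 alternatives. The count of falls against control siRNA was 5 to 7 when single arrays were left out and 4 without the arrays numbered 2. Against PBS it was 5 to 9 when single arrays were left out, lowest without PBS replicate 1, and 5 without the arrays numbered 2. With the replicate block it was 9 and 10, and beside those of Akr1d1 and Baat no call of the 10 genes changed. For control siRNA minus PBS it was 0 throughout. There the sign turned 7 times in 5 fits. Cyp27a1 was at 0.0096 with quantile normalization, 0.072 with the replicate block, and 0.074 and -0.13 without PBS replicate 1 and 2. Slc27a5 was at 0.017 with the replicate block, and 0.015 and -0.16 without PBS replicate 1 and 2. Cyp7a1 was at 0.11 without the arrays numbered 2, and -1.44 and 0.22 without PBS replicate 1 and 2. Over all genes, the calls without the arrays numbered 2 were 1549, against 2993, for Rab5 siRNA minus control siRNA and 802, against 2201, for Rab5 siRNA minus PBS, which was 1113 and 1294 without PBS replicate 1 and 2. These fits have fewer samples. Control siRNA minus PBS gave between 0 and 18 calls. The arrays numbered 2 had the highest 3′ minus 5′ signal of Gapdh in their groups, 2.67 in Rab5 siRNA, 2.86 in control siRNA and 2.58 in PBS livers.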
